A study of Mus musculus with 12 samples.

Results

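SLIT ligands and ROBO receptors, with the srGAP proteins that act below them, were followed in single mouse ovarian follicles after vitrification, a rapid cooling that turns water to glass instead of ice, and in fresh follicles that were not frozen. The genes were chosen by symbol from the authors' deposited table of vitrified against fresh follicles: Slit1, Slit2, Slit3, Robo1, Robo2, Robo3, Robo4, Srgap1 and Srgap2. Of these 9 genes, 5 had a row among the 11806 genes of that table, namely Slit2, Slit3, Robo1, Robo2 and Srgap2. Slit1, Robo3, Robo4 and Srgap1 had no row and are not analysed here. The family was picked because of the deposited fold change and p-value of Slit2, so the values of Slit2 are given as a description, and they support nothing further.

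There were 6 vitrified and 6 fresh follicles, all from 16-day-old mice of the outbred CD-1 stock. Every follicle, in both groups, was held singly in a 0.5% alginate gel and cultured for 8 days before its RNA was taken, in medium holding recombinant follicle-stimulating hormone at 10 mIU/mL. Each library came from a whole follicle, so a lower value can mean fewer cells of a type or less RNA per cell, which cannot be told apart here. Neither the source animal of each follicle nor the time of vitrification is stated in the labels.

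SLIT proteins are large secreted glycoproteins with leucine-rich repeats and EGF-like repeats. They bind the immunoglobulin domains of ROBO receptors, with heparan sulfate holding the complex together, and steer growing axons, migrating cells and sprouting vessels. Inside the cell, srGAP proteins bind the ROBO tail and switch off small GTPases that organise the actin cytoskeleton. SLIT and ROBO genes are also expressed in the ovary, where they have been described in the human corpus luteum and in fetal ovary.

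The table gave 1 pooled total per gene over the libraries, a fold change, a p-value and an adjusted p-value, with no value per follicle. No level, spread or overlap of single follicles can therefore be shown for any gene. Totals summed to 23783958 over all genes, with a median of 273 per gene, and adjusted p-values were present for 10963 genes, called tested here. All fold changes are vitrified over fresh. The 95% intervals were computed here for each gene by combining fold change and p-value, under the assumption of a normal test. The submitters' processing notes name DESeq2 with no role given. The form of the test behind the p-values is thus not known here. How any sharing of mice between follicles bears on these p-values was not tested.

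The sequences shown first are those of the ligand gene that differed and of its paralog. Slit2 (ENSMUSG00000031558.15) lies on the plus strand of chromosome 5 from 47983138 to 48307733 in GRCm38, and Slit3 (ENSMUSG00000056427.10) on the plus strand of chromosome 11 from 35121224 to 35708507. The 100 bases before each RefSeq transcription start (GRCm38.p6) are given, as chr5:47983055-47983154 for Slit2 and chr11:35121356-35121455 for Slit3, both on the plus strand. These RefSeq starts differ from the gene starts given above. The whole Slit3 stretch, and the last bases of the Slit2 stretch, lie inside the gene spans given above. Capitals mark TATAAA, the TATA box, and GGGCGG or its reverse complement CCGCCC, the GC box bound by Sp1-type factors.
Slit2: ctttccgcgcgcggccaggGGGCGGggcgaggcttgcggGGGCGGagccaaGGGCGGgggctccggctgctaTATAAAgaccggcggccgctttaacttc
Slit3: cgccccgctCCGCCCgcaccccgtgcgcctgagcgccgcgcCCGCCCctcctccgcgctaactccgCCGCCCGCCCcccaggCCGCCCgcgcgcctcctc
The Slit2 stretch held 1 TATAAA, whose first base lay at -28 from the RefSeq start, and 3 GC boxes. The Slit3 stretch held 0 TATAAA and 5 GC boxes, of which 1 pair overlapped.

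Over the longer RefSeq windows, from 250 bases before to 50 bases after the RefSeq start, Slit2 was the only gene of the family with TATAAA on either strand, among the 8 genes that had a window. The Slit3 window began at 35121206, and that of Robo1, from 72662899 to 72663198, lay inside its gene span given here. Bases before the Robo1 gene start, and most of those before that of Slit3, were thus not searched. Only 1 of the 3 Robo2 windows reached the gene span given here. TATAAA occurred in 13.6% of all 32851 promoter windows and in 6.79% of the 10280 windows of tested genes. The Slit2 window was 68% G and C and held 30 CG dinucleotides, against a median of 7 over all windows. The Slit3 window was 78.3% G and C and held 41. ACGTG, the core of the hypoxia response element, was searched on both strands and was found only in 1 of the 3 windows of Robo2 among these genes, and in 26.1% of the windows of tested genes. These letters are a description of the windows and show no binding.

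Slit2 was 17.2-fold lower in vitrified than in fresh follicles per the authors' deposited table. Its log2 fold change was -4.10 (derived 95% interval -5.03 to -3.17), or 0.0306 to 0.111 of the fresh level under the assumed normal test. Of the 10963 tested genes it had the lowest log2 fold change and the lowest p, with an adjusted p of 5.33e-14 per the authors' deposited table. These are the values that brought the family forward. With a t distribution (10 degrees of freedom) in place of the normal, the adjusted p of Slit2 was 0.0642, and none of the 58 calls over all genes was kept (0).

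The pooled total of Slit2 was 879 per the authors' deposited table, higher than that of 79.0% of the tested genes. If that total is a plain sum over the 12 libraries on 1 scale, the deposited fold change assigns 5.51% of it to the vitrified follicles. That corresponds to a derived mean of 8.07 per vitrified library and 138 per fresh library. These means are arithmetic on the pooled total and not measured levels, and whether the lower group held libraries at 0 is not known here.

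**Figure D1:**
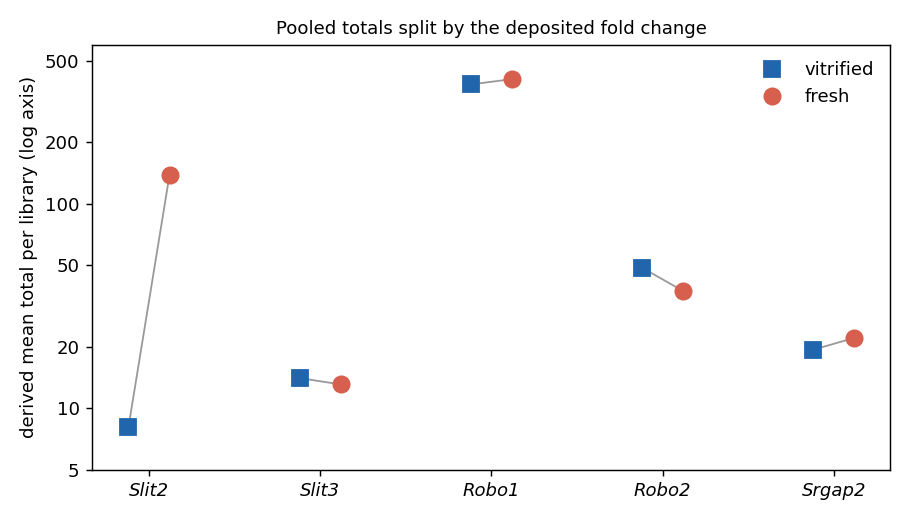
Derived mean pooled total per library for vitrified (squares) and fresh (circles) follicles, for each gene of the family on a log axis, made by splitting each pooled total by its deposited fold change; there is no error bar because the table has no value per follicle. Slit2 has 8.07 in vitrified and 138 in fresh follicles, while the pairs of points of the other 4 genes lie close together.

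Among the 3127 tested genes whose pooled total lay within 2-fold of that of Slit2, the median log2 fold change was -0.02, and 0.64% had a change of 2-fold or more in either direction, against 1.77% of all tested genes. The next lowest gene in that range was the glucose transporter gene Slc2a1, with -1.81 per the authors' deposited table. The derived standard error of Slit2 was 0.47 on the log2 scale, against a median of 0.22 for genes of like total. Its error was thus larger than usual for its total. Its interval, from -5.03 to -3.17, lay wholly beyond a 2-fold lower value. Since Slit2 was chosen for its fold change and p-value, this is a description only.

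**Figure D2:**
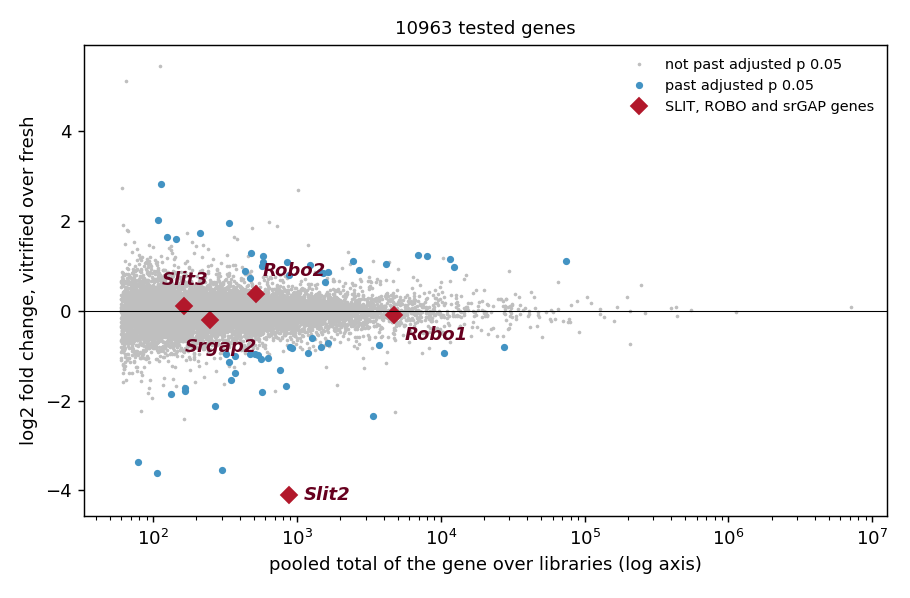
Log2 fold change, vitrified over fresh, against the pooled total of each gene on a log axis, for the 10963 tested genes; blue points passed an adjusted p of 0.05 and red diamonds are the genes of the family. Slit2 at -4.10 lies below every other tested gene, and Slit3, Robo1, Robo2 and Srgap2 lie within the bulk of genes.

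Slit3, the other ligand gene with a row, had a pooled total of 163 and was 1.07-fold higher in vitrified follicles per the authors' deposited table. Its log2 fold change was 0.10 (-0.76 to 0.97), with an adjusted p of 0.999 per the authors' deposited table. The derived means were 14.0 per vitrified and 13.1 per fresh library. The interval of Slit3 lay within 2-fold in both directions and did not overlap that of Slit2. The difference between the ligand genes was not tested, since both come from the same follicles and their covariance is unknown. Slit2 was also chosen for its fold change and p-value, so nothing is read from the gap between the intervals.

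Robo1 and Robo2 encode the receptors, and neither passed the threshold. Robo1 (ENSMUSG00000022883.11), on the plus strand of chromosome 16 from 72308306 to 73046095, had a pooled total of 4740 and a log2 fold change of -0.09 (-0.52 to 0.35) per the authors' deposited table. Its adjusted p was 0.999 per the authors' deposited table, and the derived means were 383 per vitrified and 407 per fresh library. Robo2 (ENSMUSG00000052516.19), on the minus strand of the same chromosome from 73891839 to 74411825, had a pooled total of 516 and was 1.30-fold higher in vitrified follicles per the authors' deposited table. Its log2 fold change was 0.38 (-0.07 to 0.82), with an unadjusted p of 0.0978 and an adjusted p of 0.847 per the authors' deposited table. The derived means of Robo2 were 48.6 per vitrified and 37.4 per fresh library. Robo1 had the narrowest interval of the family, from 0.696 to 1.28 of the fresh RNA level under the assumed normal test.

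Srgap2 (ENSMUSG00000026425.15), on the minus strand of chromosome 1 from 131285251 to 131527352, encodes an F-BAR protein of the srGAP family that shapes membrane protrusions. It had a pooled total of 248 and a log2 fold change of -0.19 (-0.74 to 0.35) at an adjusted p of 0.999, per the authors' deposited table. Its derived means were 19.3 per vitrified and 22.0 per fresh library. Srgap3, its paralog, had a pooled total of 1854 and a log2 fold change of 0.44 (-0.25 to 1.13) per the authors' deposited table, without passing the threshold, and was named after its values were seen.

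Thus 1 of the 5 genes passed an adjusted p of 0.05 per the authors' deposited table, in the lower direction. Over all tested genes 0.529% passed in either direction and 0.283% in the lower one. That call is lost with the t distribution named above, and since Slit2 was the reason for the choice, nothing is read from the count. Of the 4 other genes 2 were higher and 2 lower, with a median log2 fold change of 0.01, against -0.02 over all tested genes. All 4 had 95% intervals within 2-fold, as did 69.1% of the tested genes. Their unadjusted p was above 0.05 in each case, while 7.02% of all tested genes were below it.

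**Figure D3:**
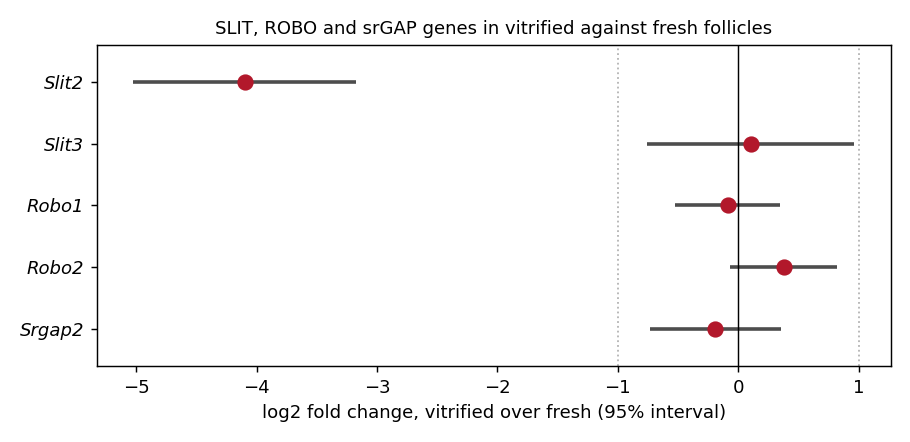
Log2 fold change, vitrified over fresh, with its derived 95% interval (bars) for the 5 genes of the family; dotted lines mark 2-fold in either direction. The interval of Slit2, from -5.03 to -3.17, lies apart from those of Slit3, Robo1, Robo2 and Srgap2, each of which holds 0.

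Levels were compared between genes per kilobase of the annotated transcript with the longest complete coding sequence. Robo1 had the highest pooled total per kilobase, at 627, followed by Slit2 at 113, Robo2 at 64.1, Slit3 at 31.1 and Srgap2 at 30.9. Robo1 therefore stood 5.55-fold above Slit2 and 9.78-fold above Robo2 in total per kilobase. With all annotated exons of a gene merged as its length, Robo1 stood 8.30-fold above Slit2, and Slit2 1.29-fold above Slit3. The lower 4 genes thus differed from each other by less than 2-fold on that length scale, and their order there cannot be fixed without values per follicle. The pooled totals mix both groups, so the place of Slit2 in this order is that of the fresh and vitrified follicles together.

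An intron of Slit2 holds the microRNA gene Mir218-1, and one of Slit3 holds Mir218-2. Both give the same mature miR-218-5p, for which Robo1 and Robo2 are known target genes in vertebrates. Its sequence is shown because it links the ligand loci with the receptor transcripts. Capitals mark the seed, bases 2 to 8.
mmu-miR-218-5p: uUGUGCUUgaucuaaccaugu
In RefSeq (GRCm38.p6) it lies at chr5:48223966-48223986 within Slit2 and at chr11:35616840-35616860 within Slit3, both on the plus strand and outside the exons of the longest coding transcript. The levels of this microRNA were not measured here.

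The match to the seed, AAGCACA, was searched in the annotated 3′ UTR of the transcript with the longest complete coding sequence. It occurred 1 time in Robo1, 2 times in Robo2, 1 time in Srgap2 and 1 time in Slit2, and Slit3 had no match in its annotated UTR. The receptor sites are shown with 11 bases on either side, with the seed match in capitals, at chr16:73045337-73045365 on the plus strand for Robo1, and on the minus strand at chr16:73895348-73895376 and chr16:73893022-73893050 for Robo2 (GRCm38).
Robo1: tttggttttaaAAGCACAatcactaaact
Robo2, first site: tatttggtgatAAGCACAaatctctactc
Robo2, second site: acggcagacccAAGCACAgcttctttcag
The Robo1 site and the first Robo2 site were followed by an A. Of 9741 tested genes with an annotated 3′ UTR, 14.2% held a match. Among those with a UTR within 2-fold of the length of that of Robo1, 17.3% did, and for Robo2 28.9% did. The 1388 tested genes with a match had a median log2 fold change of -0.01, against -0.02 for the 8353 without one. Robo1, at -0.09, and Robo2, at 0.38, both had intervals that held 0 in the same comparison.

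Within 1 Mb of either end of Slit2 the annotation lists 40 other genes, of which 2 are protein coding and 1 had a row in the table. That gene, 5730480H06Rik, lies 20.2 kb beyond the end of Slit2 on the same strand, from 48327952 to 48414294 on chromosome 5. It had a pooled total of 85.2 and a log2 fold change of 0.13 (-0.83 to 1.09) at an adjusted p of 0.999, per the authors' deposited table. The interval of this single measurable neighbour held 0 and reached just past 2-fold upwards. The annotation also lists an antisense gene, 4930518C09Rik, inside Slit2, with no row in the table. The sources used here do not give whether counting used strand, and overlap of this antisense gene with Slit2 exons is not given here. Whether any of its reads were counted for Slit2 is thus not known. Of the 50-base windows of annotated Slit2 transcripts 0.0454% occurred in transcripts of another gene, and for Robo1 the share was 0.0909%, so few windows of these genes have a copy elsewhere. Other genes named here were not searched in this way.

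The 5 tested genes with the log2 fold change nearest to that of Slit2, over this 1 comparison, were Gm2123, Akr1c13, Gm28048, Igf2 and Gm17383. Akr1c13 encodes an aldo-keto reductase and had a log2 fold change of -3.54 per the authors' deposited table. Gm2123, a predicted gene next to it on chromosome 13, had -3.62 and Gm28048, on chromosome 11, had -3.38 per the authors' deposited table. Igf2, an imprinted growth factor gene, had -2.41 (-5.53 to 0.72) and an adjusted p of 0.882 per the authors' deposited table, so it did not pass. Gm17383 had -2.33 per the authors' deposited table. With 1 comparison and no value per follicle, likeness in fold change says nothing of whether these genes varied together.

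The other genes of the SLIT and ROBO pathway were described by lists of binding partners, effectors and heparan sulfate genes. Of 68 tested genes in these lists together, none passed (0 higher and 0 lower, where 0.529% of all tested genes did), with a median log2 fold change of -0.03. At an unadjusted p under 0.05 there were 5, or 7.35%, close to the 7.02% of all tested genes.

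Binding partners and co-receptors had 11 tested genes, 5 higher and 6 lower, with a median log2 fold change of -0.01. Dcc, the netrin receptor that ROBO1 binds and silences in frog neurons, had -0.90 (-1.81 to 0.02) per the authors' deposited table. Plxna1, a semaphorin receptor that also binds a cleaved end of SLIT2, had -0.44 (-0.93 to 0.05) per the authors' deposited table. Gpc1, a glypican that binds SLIT2 through its heparan sulfate chains, had 0.60 (0.21 to 0.99) with an unadjusted p of 0.00276 and an adjusted p of 0.218 per the authors' deposited table. Sdc3, a syndecan, had 0.44 (-0.23 to 1.10) per the authors' deposited table.

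Effectors below ROBO had 31 tested genes, 13 higher and 18 lower, with a median log2 fold change of -0.05. Rac1, a small GTPase of actin protrusion, had -0.63 (-1.19 to -0.07) and an adjusted p of 0.592 per the authors' deposited table. Src, a tyrosine kinase, had 0.56 (0.07 to 1.06) and an adjusted p of 0.582 per the authors' deposited table. Prkacb, a catalytic subunit of protein kinase A, had -0.30, and Abl2, a kinase of the Abl family, had -0.49, per the authors' deposited table. The targets of srGAPs and their relatives Cdc42 and Rhoa had 0.01 (-0.18 to 0.21) and 0.16 (-0.15 to 0.47) per the authors' deposited table. These last 2 genes were chosen after their values were seen.

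Heparan sulfate genes had 31 tested members, 16 higher and 15 lower, with a median log2 fold change of 0.01. Gpc2, another glypican, had 1.35 (0.58 to 2.12) with an unadjusted p of 0.000582 and an adjusted p of 0.0891 per the authors' deposited table, on a pooled total of 133. Hs3st1 and Hs6st2, which add sulfate to the chains, had 0.75 (0.26 to 1.25) and 0.62 (-0.05 to 1.30) per the authors' deposited table. No gene of this list passed the adjusted threshold (0, where 0.529% of all tested genes did), and 3, or 9.68%, had an unadjusted p under 0.05, against 7.02% of all tested genes.

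**Figure D4:**
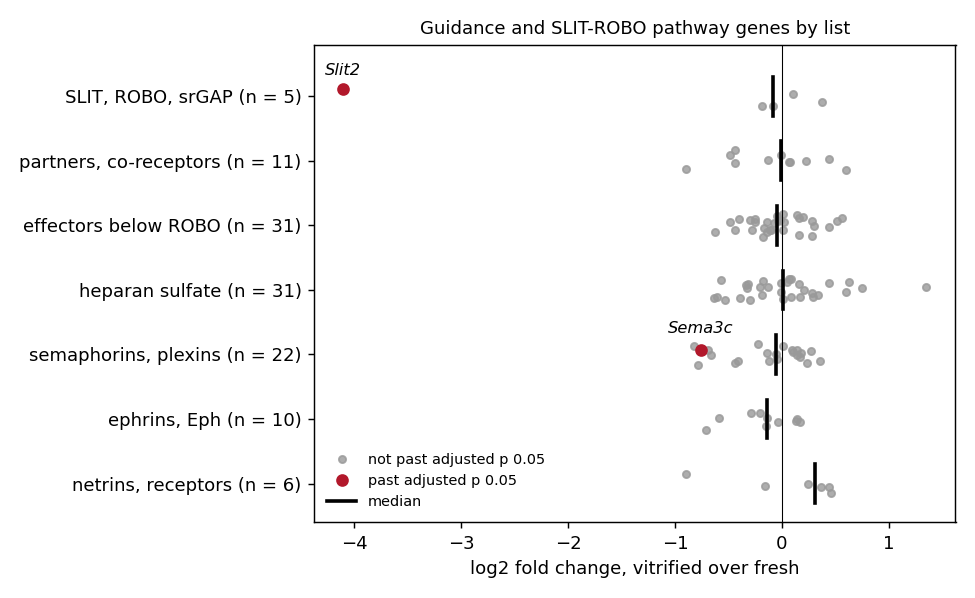
Log2 fold change, vitrified over fresh, of every tested gene in the family, the pathway lists and the lists of other guidance genes; red points passed an adjusted p of 0.05, black bars are list medians, and vertical scatter only separates points. Slit2 at -4.10 and Sema3c at -0.76 are the red points, and all other genes plotted lie between -0.90 and 1.35.

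The families most like SLIT and ROBO are the other guidance cues. Of 38 tested semaphorin, plexin, neuropilin, ephrin, Eph and netrin genes 1 passed, or 2.63% against 0.529% of all tested genes, with 17 higher, 21 lower and a median log2 fold change of -0.05. That gene was Sema3c, a secreted semaphorin, which was 1.69-fold lower in vitrified follicles per the authors' deposited table (log2 fold change -0.76, -1.16 to -0.35, adjusted p 0.0450). Sema3g, another secreted semaphorin, had -0.78 (-1.30 to -0.27) and the plexin receptor gene Plxnc1 -0.69 (-1.15 to -0.23) per the authors' deposited table, at adjusted p = 0.224 and 0.229. Of the 22 tested semaphorin and plexin genes 10 were higher and 12 lower. The 2 genes of that list with a row but no adjusted p were Sema3a, at -1.78 (-3.27 to -0.28), and Plxna4, at -1.90 (-3.70 to -0.11). Both had an unadjusted p under 0.05 per the authors' deposited table, on low pooled totals of 36.6 and 44.0. The 10 tested ephrin and Eph genes had a median of -0.14, led by Epha3 at -0.71, Efna2 at -0.59, Efna5 at -0.29 and Epha7 at -0.21 per the authors' deposited table. None of them passed the threshold (0), and 0 had an unadjusted p under 0.05. The 6 tested netrin genes, 4 higher and 2 lower, had a median of 0.30. The largest change was that of Dcc, named above, at -0.90 (-1.81 to 0.02). The netrin receptor gene Unc5c had 0.46 (-0.30 to 1.22) and Ntn3 had 0.37 (-0.31 to 1.04) per the authors' deposited table. Rgmb, a ligand of the receptor neogenin, had 0.24 (-0.24 to 0.72) per the authors' deposited table. In this list 0 genes had an unadjusted p under 0.05. Whether the change of Slit2 differs from that of Sema3c was not tested. Their intervals did not overlap, but Slit2 was chosen for its fold change and p-value, so nothing is read from this.

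Markers of the cells a follicle holds are given beside the change of Slit2. Granulosa markers had 13 tested genes, 6 higher and 7 lower, with a median log2 fold change of -0.02. Splitting their pooled totals by fold change as above, the derived means summed over the list to 182638 per vitrified and 181517 per fresh library. Fshr at 0.67 was higher, and Fst at -0.82 and Inhbb at -0.57 were lower, each at an unadjusted p under 0.05 per the authors' deposited table. Theca markers had 6 higher and 5 lower, with a median of 0.08, from Acta2 at -0.67 to Insl3 at 2.70 per the authors' deposited table. Aldh1a1 at 1.19, Star at 1.60 and Insl3 were higher and Fbln1 at -0.50 was lower, each at an unadjusted p under 0.05. The derived means of the theca list summed to 40420 per vitrified and 42117 per fresh library. Hsd3b1, at -0.11, held 435485 of the 495222 pooled total of that list, so the sum mostly reflects this gene. All 9 tested endothelial markers were lower, with a median of -0.81, and Cdh5, an endothelial cadherin, had -1.66 (-3.45 to 0.13) per the authors' deposited table. The derived means of the 12 endothelial markers with a row summed to 145 per vitrified and 360.0 per fresh library. Cdh5, whose interval held 0, had 1912 of the 3028 pooled total of this list. In the granulosa list too, the sum rests mostly on the few genes with the largest totals. All 7 tested oocyte markers were higher, with a median of 0.58, and the 9 with a row summed to derived means of 154 per vitrified and 94.8 per fresh library. No gene of these lists passed the adjusted threshold (0, where 0.529% of all tested genes did). At an unadjusted p under 0.05 there were 4 of 11 theca markers (36.4%), 3 of 13 granulosa markers (23.1%) and 0 endothelial or oocyte markers, against 7.02% of all tested genes. The endothelial markers Tek, Emcn, Vwf, Plvap and Erg had no row in the table. The 7 tested stromal markers had a median of 0.08, with derived means summing to 1203 per vitrified and 1285 per fresh library. Of the 4 surface epithelium markers with a row, Krt8 was tested and had 0.22 (-0.82 to 1.27) per the authors' deposited table. With no adjusted p, Upk3b had -2.59 (-6.26 to 1.08), Krt7 -1.90 (-4.75 to 0.96) and Lrrn4 -0.78 (-3.13 to 1.56), per the authors' deposited table. Their pooled totals were low, at 48.4, 51.5 and 29.9, and each interval held 0. The derived means of the 4 surface epithelium markers summed to 12.9 per vitrified and 23.8 per fresh library. The part of these cells in the change of Slit2 was not tested.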

How the data were processed

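RNA was sequenced from 12 single follicles, and 1 table of the authors' comparison was used. Per the submitters' processing notes, Bowtie2, HISAT2, Partek and DESeq2 and the build mm10 are named, with no version, role or order. Per the labels' protocols, libraries followed a Smart-seq method. The deposited pooled totals are mostly not whole (0.237% within 0.001) and so no count test was run on them. The deposited p-value, step-up adjusted p-value and log2 fold change were used as given, and the signed fold change only for its size. An adjusted p is missing for 843 genes with a total of at most 59.4. Calls used an adjusted p under 0.05 over all tested genes.

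The planned count model could not be fitted because no value per follicle was used, so the authors' test stands in its place. Derived standard errors divide the log2 fold change by the normal quantile of the p-value. These steps were run on simulated data drawn with normal errors, which cannot check the assumption of a normal test. Depth per follicle is unknown. Genes were matched by symbol to GENCODE M21 (GRCm38, called mm10), promoters and microRNAs to RefSeq (GRCm38.p6), with Python 3.11.15, SciPy 1.17.1 and pandas 2.3.3. Named genes were the family, up to 4 genes of lowest p and any called gene in each list, the 5 genes nearest Slit2 and genes within 1 Mb of it. Slc2a1, Srgap3, Acta2, Hsd3b1, Upk3b, Krt7, Lrrn4, Cdc42, Rhoa, Sema3a and Plxna4 fell outside this rule and were chosen after their values were seen. Members and lists were chosen with earlier results of these data known. Alternatives changed the adjustment, the filter on totals, the reference distribution, the threshold and the centring.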

Additional observations from a re-analysis of the deposited data

How the results depend on the processing

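The call of Slit2, the 1 gene of the family past the threshold, was kept when p-values were adjusted over every row, over genes with a total of at least 120, or with a threshold of 0.1. The 58 calls over all genes became 58, 57 and 78 under these settings. When the normal was replaced by a t distribution (10 degrees of freedom), 0 genes of the family and 0 of all tested genes passed, and the adjusted p of Slit2 was 0.0642, still the lowest. That follows from the heavier tails of a distribution chosen here. DESeq2 is named in the processing notes, but the form of the authors' test is not known here. With the deposited p-values 770 genes had an unadjusted p under 0.05. Centring log2 fold changes on the median of tested genes moved Slit2 to -4.08 and Robo2 to 0.40, and no gene of the family changed sign. No paired analysis was possible because the table holds no values per follicle, and leaving out each follicle was not run for the same reason. Given the derived errors, an observed change had to reach 1.82-fold for Slit3 and 1.35-fold for Robo1 to give an unadjusted p of 0.05. These values are not limits on the true changes that could be detected.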
